A study of Saccharomyces cerevisiae with 4 samples.

Results

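The genes described here are 35 yeast genes of sterol metabolism, out of 6207 genes in the table: 9 of the mevalonate route, 15 of the sterol branch with its reductase NCP1, the transcription factors UPC2 and ECM22, the sterol esterification enzymes ARE1 and ARE2, and the 7 oxysterol-binding protein homologues (OSH). They were chosen by systematic name for these roles, with earlier results of these data known. A Saccharomyces cerevisiae strain of the BY4741 background carrying a mid2 mutation, which the labels do not describe further, was grown in YEPD at 24 °C. Mid2 is a plasma membrane protein that senses wall stress and signals to the Slt2 kinase. Each culture was split, and the part given caspofungin at 15 ng/ml for 2 h was compared with the part left without the drug. Caspofungin is an echinocandin that inhibits the enzyme making the beta-glucan of the yeast wall, and the question was which transcripts of the mutant differ after this exposure. Every RNA in the data, the untreated included, comes from the mid2 mutant, so nothing here compares the mutant with a wild type. RNA of 2 cultures was hybridised to 4 2-colour arrays, with caspofungin RNA in Cy3 on arrays 1 and 3 and in Cy5 on arrays 2 and 4.

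Ergosterol is the main sterol of fungal membranes. Acetyl-CoA passes through mevalonate to farnesyl diphosphate, squalene synthase then commits it to sterol, and a chain of oxygen-requiring steps turns squalene through lanosterol into ergosterol. Surplus sterol is stored as esters in lipid droplets, UPC2 and ECM22 adjust transcription of the pathway to the sterol supply, and OSH proteins move lipids between membranes, several of them by exchange against phosphatidylinositol 4-phosphate.

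A value is a log2 ratio of the 2 channels of 1 array, not a level. The sources used here do not give the direction of the ratio, so signs are those deposited and no gene is called higher or lower with caspofungin. The ratios can be read in a pair of ways. If the authors had already turned the ratios so that all arrays run the same way, the treatment lies in the mean of the 4 arrays and dye bias lies in the part that swaps sign with the dyes. If the ratios follow the dyes, it is the other way round. Both parts are therefore given. Ratios were present for 3215 to 4346 genes per array, and 2925 genes had a value on all 4. Array medians over those genes were between -0.22 and -0.057, and the median of the gene means was -0.13. Centring each array on its median moved that median by 0.11, so means are also given less the all-gene median where this matters. Among the 23 sterol genes with 4 values, Pearson's r was 0.799 between arrays 1 and 3 and 0.788 between arrays 2 and 4, and lay between -0.083 and 0.29 for arrays of opposite orientation, a description over genes that share each array. Over all 2925 genes r was 0.655 and 0.794 in the same order, and between -0.153 and 0.138 for arrays of opposite orientation. MID2 had no value on any array, so the genotype could not be checked here. BY4741 is of the a mating type. Values on all arrays were present for 5 of 6 a-cell genes and 0 of 4 alpha-cell genes, but a ratio shows no level. In RNA from a whole culture, fewer cells of a kind and less RNA per cell cannot be told apart.

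Of the 35 genes, 23 had a value on all 4 arrays, which is 65.7%, against 47.1% of all genes. Another 5 had 1 to 3 values (ERG7, SWH1, ERG25, OSH2 and ERG5). The other 7 were blank on every array: HMG1, HMG2, ERG24, ECM22, ARE2, OSH3 and HES1. Both HMG-CoA reductase genes are thus missing, and the rule that left cells blank is not given in the sources used here.

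No member passed the test (0 of 23; limma on culture means, adjusted p under 0.05), beside 0.0342% of all genes. Without adjustment 3 members had a p under 0.05, NCP1 with a positive mean and IDI1 and OSH7 with negative means, beside 25.3% of all genes. The lowest adjusted p of a member was 0.163, shared by these 3 genes. Ratios were positive on all 4 arrays for 2 members, NCP1 and ERG11, beside 6.87% of all genes. They were negative on all 4 for 4 members, IDI1, ERG12, OSH7 and KES1, beside 19.3% of all genes. After centring of the arrays, NCP1 and ERG11 were positive on all 4 (2 of 23, beside 10.97% of all genes) and IDI1 and OSH7 negative on all 4 (2 of 23, beside 8.718%). No member was at least 2-fold with 1 sign on all 4 arrays (0 of 23), beside 0.479% of all genes. The median of the 23 means was -0.037, against -0.13 for all genes.

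**Figure D1:**
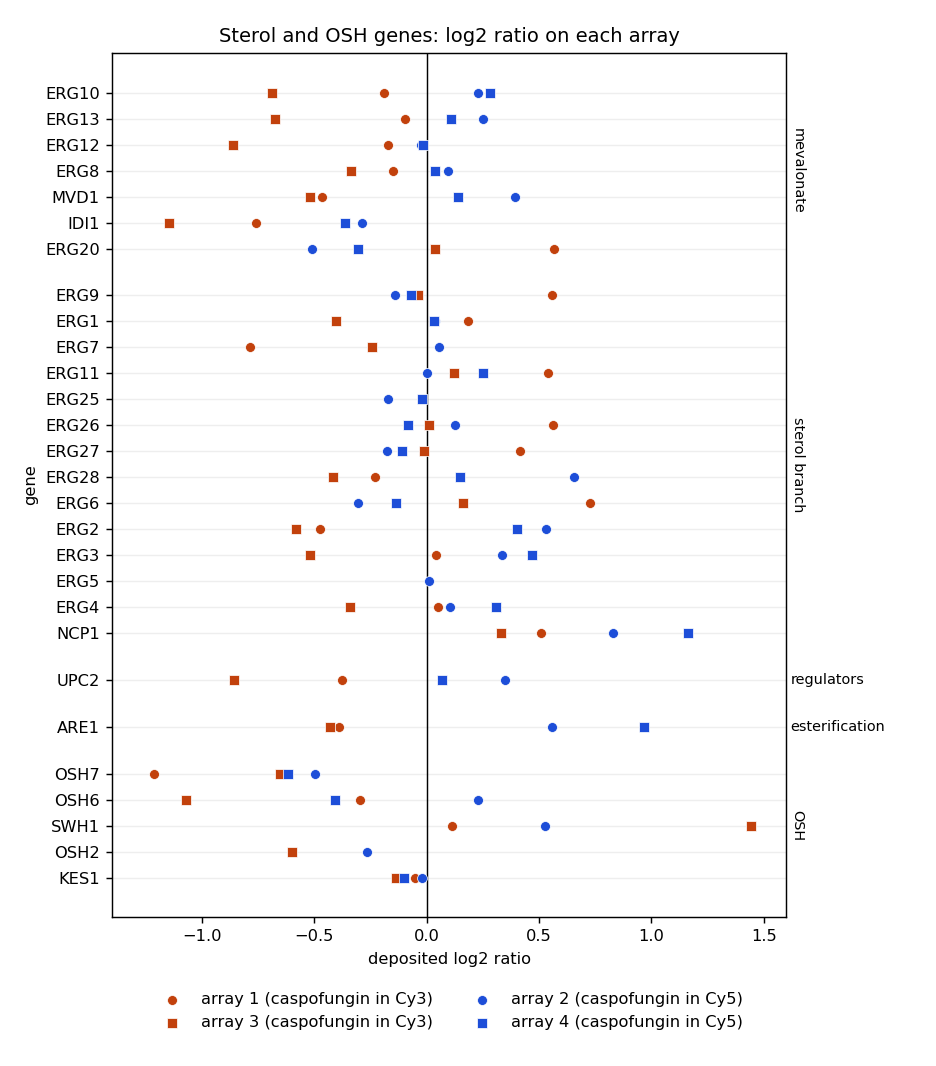
Deposited log2 ratio (horizontal axis) of the 28 genes with at least 1 value, by role, with arrays 1 and 3 (caspofungin in Cy3) in orange and arrays 2 and 4 (caspofungin in Cy5) in blue. NCP1 lies right of 0 and IDI1 and OSH7 left of 0 on all 4 arrays, while for ERG2 and ARE1 the colours fall on opposite sides of 0.

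The mevalonate route had 7 of its 9 genes measured on all arrays, and all 7 means were negative, from -0.64 for IDI1 to -0.054 for ERG20, but 4 of the 7 were positive after centring of the arrays and 6 when turned by the dye labels. Of all genes, 73% had a negative mean as deposited, 46.2% a positive mean after centring and 55.9% a positive mean when turned. None passed the test (limma, 0 of 7). IDI1 (YPL117C), the isomerase that makes dimethylallyl diphosphate, had ratios of -0.76, -0.29, -1.15 and -0.37 on arrays 1 to 4. All 4 were negative, and the 2 arrays with caspofungin in Cy3 lay below the 2 with it in Cy5. Its mean of -0.64 ± 0.40 (SD, n = 4 arrays) is a 1.56-fold difference. The 95% confidence interval was -0.93 to -0.35, and the mean ranked 28 from the lowest of the 2925. Turned by the dye labels its mean was 0.31. The limma adjusted p was 0.163, from 0.0344 to 0.423 over its alternatives. IDI1 passed when arrays 1 and 4, and 2 and 3, were taken as the cultures (limma, adjusted p = 0.0344) and with all 4 arrays and a dye term (0.0388). The fit with a dye term takes the 4 arrays as separate although they come from 2 cultures.

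ERG12 (YMR208W), mevalonate kinase, had -0.17, -0.025, -0.86 and -0.016 on arrays 1 to 4. It was negative throughout, but 2 of the 4 values were close to 0. Its mean was -0.27 ± 0.40 (SD, n = 4; 1.21-fold; limma, adjusted p = 0.257, with alternatives giving 0.198 to 0.979), and -0.072 without array 3. The confidence interval was -0.62 to 0.083, and the mean ranked 640 from the lowest. Less the median of all genes it was -0.14, and after centring of the arrays 2 of its 4 values were positive. Turned by the dye labels its mean was 0.25.

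The other mevalonate enzymes changed sign with the dyes as deposited. ERG10, acetoacetyl-CoA thiolase, had -0.19 and -0.69 with caspofungin in Cy3 (arrays 1, 3) and 0.23 and 0.28 with it in Cy5 (arrays 2, 4). ERG13, HMG-CoA synthase, had -0.098 and -0.68 with caspofungin in Cy3 (arrays 1, 3) and 0.25 and 0.11 with it in Cy5 (arrays 2, 4). After centring its value on array 1 was 0.0025, so it no longer changed sign with the dyes. ERG8, phosphomevalonate kinase, had -0.15 and -0.34 against 0.095 and 0.036 in the same order. MVD1, mevalonate pyrophosphate decarboxylase, which follows ERG8 in the route, had -0.47 and -0.52 against 0.39 and 0.14. In these 4 genes the orientations did not overlap, so their means over 4 arrays, -0.11 to -0.089, average values of opposite sign. ERG20 (YJL167W), farnesyl diphosphate synthase, which makes the last product shared by the sterol and other isoprenoid routes, ran the other way, with 0.56 and 0.036 with caspofungin in Cy3 (arrays 1, 3) and -0.51 and -0.30 with it in Cy5 (arrays 2, 4).

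In the sterol branch, 11 of 15 genes had 4 values, of which 9 means were positive and 2 negative as deposited, all 11 positive after centring, and 6 positive when turned by the dye labels. Positive means were found in 27%, 46.2% and 55.9% of all genes in the same order. No gene of the branch passed the test (limma, 0 of 11). NCP1 (YHR042W) stood highest. It encodes the NADPH-cytochrome P450 reductase that passes electrons to the P450 enzymes Erg11 and Erg5 and to squalene epoxidase. Its ratios were 0.51, 0.83, 0.33 and 1.16 on arrays 1 to 4. All 4 were positive, with arrays 2 and 4 above arrays 1 and 3. The mean was 0.71 ± 0.37 (SD, n = 4), a 1.63-fold difference with a 95% confidence interval of 0.48 to 0.94, ranking 81 from the highest of the 2925. Less the median of all genes it was 0.84, and turned by the dye labels it was 0.29. The limma adjusted p was 0.163, from 0.0334 to 0.417 over its alternatives. NCP1 passed with arrays 1 and 4, and 2 and 3, as the cultures (limma, adjusted p = 0.0334), with a dye term (0.0388) and with arrays centred and scaled to 1 spread (0.0356). Without array 3 its mean was 0.83, from a fit in which a culture keeps a single array.

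ERG11 (YHR007C), lanosterol demethylase and the target of azole antifungals, had 0.54, 0.0022, 0.12 and 0.25 on arrays 1 to 4. All were positive, but the value on array 2 was close to 0. Its mean was 0.23 ± 0.23 (SD, n = 4; 1.17-fold; limma, adjusted p = 0.271, with alternatives giving 0.126 to 0.921), with a confidence interval of -0.072 to 0.53, ranking 286 from the highest. The mean was 0.12 without array 1 and -0.10 when turned by the dye labels. The other clients of Ncp1 gave no shared sign: ERG1, squalene epoxidase and the target of allylamines, had 0.19, 0.035, -0.40 and 0.034, and ERG5, the sterol desaturase, had 1 value, 0.0082 on array 2.

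ERG9 (YHR190W), squalene synthase, had 0.56 on array 1 and -0.14, -0.041 and -0.071 on arrays 2 to 4, and its mean of 0.075 ± 0.32 (SD, n = 4) became -0.085 without array 1. ERG7, lanosterol synthase, had -0.79, 0.054 and -0.24 on arrays 1 to 3. It was tested only among the 3299 genes with at least 3 values, where it did not pass (limma, adjusted p = 0.258).

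Removal of the methyl groups at carbon 4 of the sterol uses ERG25, ERG26 and ERG27, held together by the scaffold ERG28. ERG25, the methyl oxidase, had -0.17 and -0.024 on arrays 2 and 4 alone. ERG26, the decarboxylase, had 0.56, 0.13, 0.011 and -0.083, and ERG27, the ketoreductase, 0.42, -0.18, -0.014 and -0.11 on arrays 1 to 4. Both were highest on array 1 and within 0.2 of 0 on the others. ERG28, with -0.23, 0.65, -0.42 and 0.15, was negative on array 1, where ERG26 and ERG27 were highest.

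The last steps rebuild the ring and the side chain. ERG6 (YML008C), the methyltransferase that gives ergosterol its fungal side chain, had 0.73 and 0.16 with caspofungin in Cy3 (arrays 1, 3) and -0.30 and -0.14 with it in Cy5 (arrays 2, 4). ERG2 (YMR202W), the sterol isomerase that acts next, ran the opposite way, with -0.47 and -0.58 with caspofungin in Cy3 (arrays 1, 3) and 0.53 and 0.40 with it in Cy5 (arrays 2, 4). Within each of these genes the orientations did not overlap. ERG3, the ring desaturase, had 0.039 and -0.52 with caspofungin in Cy3 (arrays 1, 3) and 0.33 and 0.47 with it in Cy5 (arrays 2, 4). ERG4, the reductase of the last step, stayed closer to 0, with 0.052 and -0.34 against 0.10 and 0.31 in the same order.

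**Figure D2:**
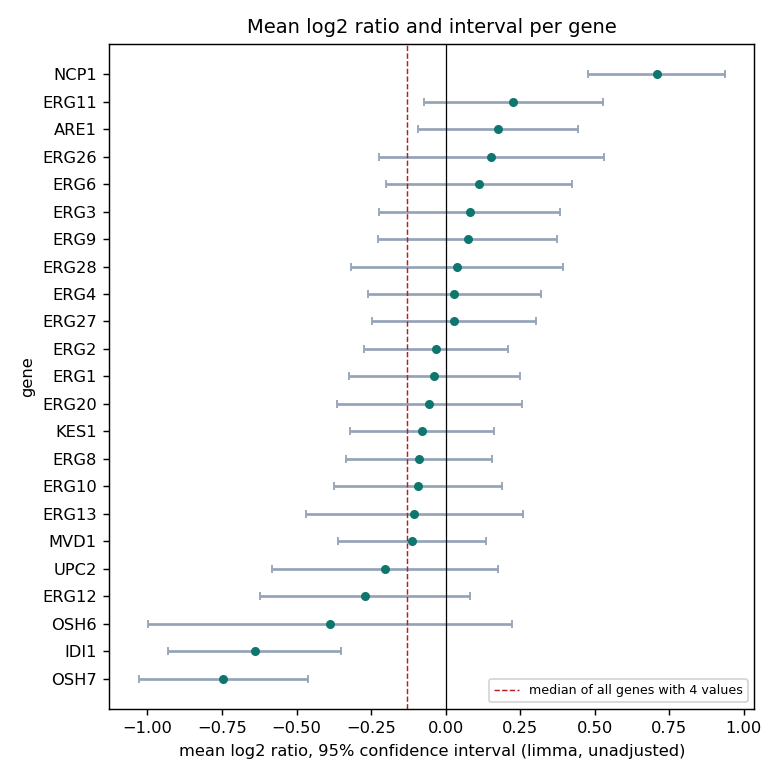
Mean log2 ratio over 4 arrays (horizontal axis) of the 23 genes with 4 values, sorted, with unadjusted 95% confidence intervals from limma and the median of all 2925 genes as a dashed line. The intervals of NCP1, IDI1 and OSH7 do not reach 0, and those of the other 20 genes do.

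The sterol branch was set against the mevalonate route by their medians on each array, a difference chosen after its values were seen and not tested. Sterol branch medians were 0.42, 0.10, -0.041 and 0.15 on arrays 1 to 4, against -0.17, 0.095, -0.68 and 0.036 for the mevalonate route. The sterol branch median was the higher on 4 of 4 arrays, by 0.59, 0.0057, 0.64 and 0.11, with a mean of 0.34 ± 0.32 (SD, n = 4). Centring cannot alter this difference, which averaged 0.61 on the arrays with caspofungin in Cy3 and 0.06 on those with it in Cy5. Turned by the dye labels the mean was -0.28.

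**Figure D3:**
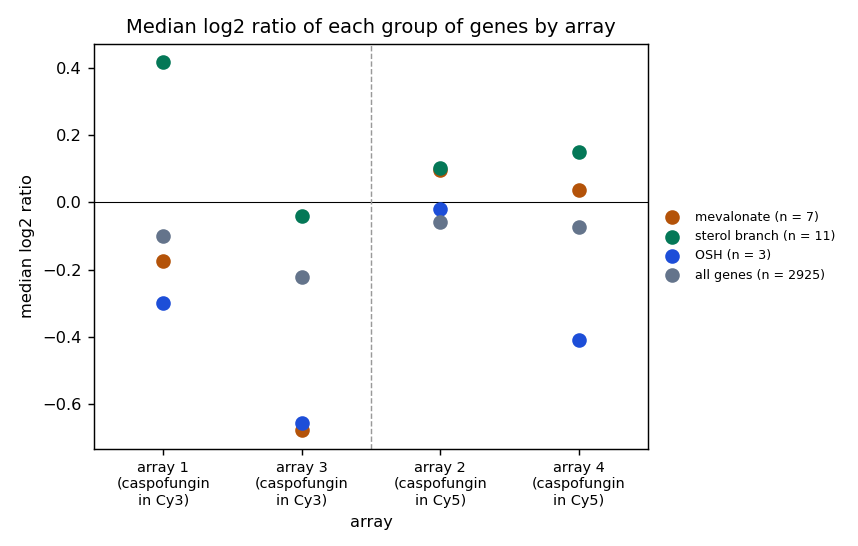
Median log2 ratio (vertical axis) of the mevalonate, sterol branch and OSH genes with 4 values and of all genes, on arrays 1 and 3 (left of the dashed line) and 2 and 4. The sterol branch lies above the mevalonate route on arrays 1 and 3, and the groups nearly coincide on array 2.

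UPC2 (YDR213W), the zinc cluster activator of ergosterol and sterol uptake genes, had -0.38 and -0.86 with caspofungin in Cy3 (arrays 1, 3) and 0.35 and 0.067 with it in Cy5 (arrays 2, 4). The orientations did not overlap, and its mean of -0.20 ± 0.53 (SD, n = 4; limma, adjusted p = 0.364) was smaller than its spread between arrays and was 0.013 without array 3. ARE1 (YCR048W), one of the pair of acyltransferases that esterify sterols, had -0.39 and -0.43 with caspofungin in Cy3 (arrays 1, 3) and 0.56 and 0.97 with it in Cy5 (arrays 2, 4). Its SD over arrays, 0.70, was the largest of the 23 genes, with a mean of 0.18 (limma, adjusted p = 0.323) that was -0.087 without array 4.

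Among the OSH genes, 3 of 7 had 4 values, and all 3 means were negative as deposited, 2 of 3 after centring and none when turned by the dye labels, beside 73%, 53.8% and 44.1% of all genes. No OSH gene passed the test (limma, 0 of 3). OSH7 (YHR001W) encodes a protein that carries phosphatidylserine to the plasma membrane in exchange for phosphatidylinositol 4-phosphate. Its ratios were -1.22, -0.50, -0.65 and -0.62 on arrays 1 to 4, all negative, with array 1 lowest. The mean of -0.75 ± 0.32 (SD, n = 4; 1.68-fold, confidence interval -1.03 to -0.46) was the lowest of the 23, and ranked 15 from the lowest of the 2925. The limma adjusted p was 0.163, from 0.0361 to 0.417 over its alternatives, and OSH7 passed with arrays 1 and 4, and 2 and 3, as the cultures (limma, adjusted p = 0.0361) and with a dye term (0.0388). Less the median of all genes its mean was -0.62, and turned by the dye labels it was 0.19.

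OSH6 (YKR003W), the close paralogue of OSH7 with the same transfer activity, had -0.30, 0.23, -1.07 and -0.41, with a mean of -0.39 ± 0.53 (SD, n = 4; limma, adjusted p = 0.307). OSH7 minus OSH6 was -0.92, -0.72, 0.42 and -0.21 on arrays 1 to 4. The pair differed by -0.36 ± 0.60 (SD, n = 4), less than the spread between arrays (exact sign-flip permutation test over arrays, two-sided p = 0.375, where 0.125 is the smallest 4 arrays allow). That test takes the 4 arrays as separate although they come from 2 cultures. Over culture means the exact two-sided p was 1.0 or 0.5 by the pairing of arrays, and 0.5 is the smallest 2 cultures allow. Whether the spots of this pair share signal was not tested.

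KES1 (YPL145C), also called OSH4, exchanges sterol for phosphatidylinositol 4-phosphate. It was the least variable of the 23 genes, with -0.054, -0.019, -0.14 and -0.10 and a mean of -0.079 ± 0.053 (SD, n = 4; 1.06-fold; limma, adjusted p = 0.601, with alternatives giving 0.499 to 0.995). The confidence interval was -0.32 to 0.16, and the mean ranked 1759 from the lowest. These values lie within the shift of the arrays themselves: after centring its mean was 0.034, and 3 of 4 values were positive. Of the long OSH proteins, which bear membrane-targeting domains, SWH1 (also OSH1) had 0.11, 0.53 and 1.44 on arrays 1 to 3. All 3 were positive, and among the genes with at least 3 values it did not pass (limma, adjusted p = 0.252). Its paralogue OSH2 had -0.27 and -0.60 on arrays 2 and 3. SWH1 minus OSH2 was 0.79 and 2.04 on these arrays, both positive, but 2 arrays allow no exact p below 0.5. The other 4 of the 6 paralogue pairs considered, among them HMG1 with HMG2 and ARE1 with ARE2, had a blank member.

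**Figure D4:**
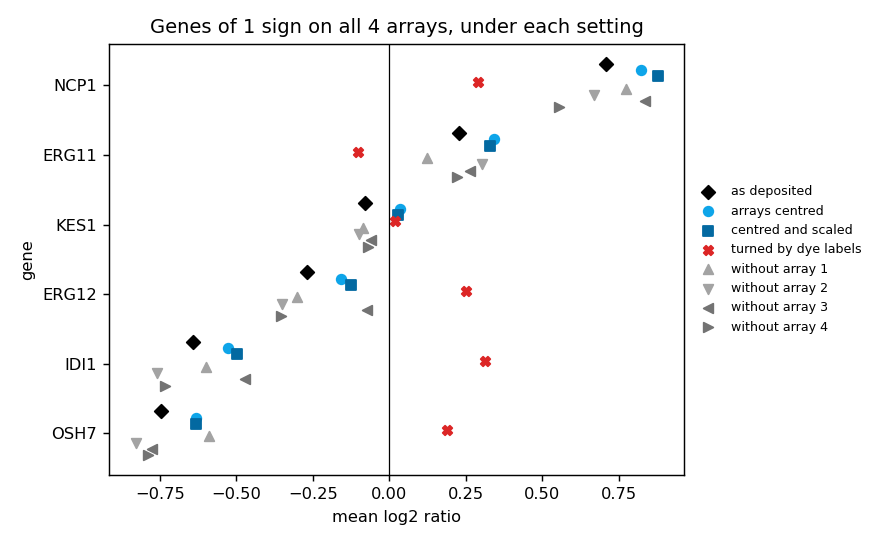
Mean log2 ratio (horizontal axis) of the 6 genes with 1 sign on all arrays, as deposited and under 7 other settings. NCP1 stays right of 0 throughout, KES1 crosses 0 with centring, and ERG11, ERG12, IDI1, OSH7 and KES1 cross 0 when the values are turned by the dye labels.

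The part of the ratio that swaps with the dyes was larger than the part that did not in most of these genes. The swapped part is given as the mean of arrays 1 and 3 less that of arrays 2 and 4, divided by 2. It exceeded the mean over arrays in size in 15 of 23 members, or 65.2%, against 53.7% of all genes. A group of 8 genes (ERG10, ERG13, ERG8, MVD1, ERG28, ERG2, UPC2 and ARE1) was negative on both arrays with caspofungin in Cy3 and positive on both with it in Cy5, or 34.8% of the 23, beside 19.7% of all genes. The opposite was seen for 2 genes, ERG20 and ERG6, or 8.7%, beside 13.4% of all genes. After centring the counts were 8 and 3, or 34.78% and 13.04%, beside 20.48% and 20.31% of all genes. Of the first 8 genes 7 were shared, with ERG13 lost and ERG12 gained, and ERG27 joined ERG20 and ERG6. On the arrays with caspofungin in Cy5, 13 of 23 members were positive on both, beside 32.3% of all genes, and 8 negative on both, beside 48.1%. On those with it in Cy3, 13 were negative on both, beside 51.6%, and 5 positive on both, beside 23.2%.

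The swapped part was -0.59 for ARE1, -0.50 for ERG2, -0.41 for UPC2 and -0.38 for MVD1, and 0.35 for ERG20 and 0.33 for ERG6. No member passed for it (0 of 23), beside 0% of all genes, while without adjustment 11 of 23, or 47.8%, had a p under 0.05, beside 32.3% (limma). The lowest adjusted p was 0.0763, for ARE1 and ERG2. With arrays centred and scaled to 1 spread, ARE1, ERG20, ERG6 and ERG2 passed (limma, adjusted p = 0.0295 to 0.0482), beside 20.2% of all genes. If the ratios follow the dyes, ARE1, ERG2 and UPC2 are the members with the largest treatment part. That reading was not tested, and under it the HSP12 mean of 3.90 would be dye bias. HIS3 and LEU2, disrupted in the strain background, showed the same alternation as ERG2 and ARE1, with -0.63, 0.40, -0.64 and 0.39 for HIS3 and -0.58, 0.24, -0.65 and 0.25 for LEU2. The part of dye bias in the ratios of the alternating genes was not tested.

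**Figure D5:**
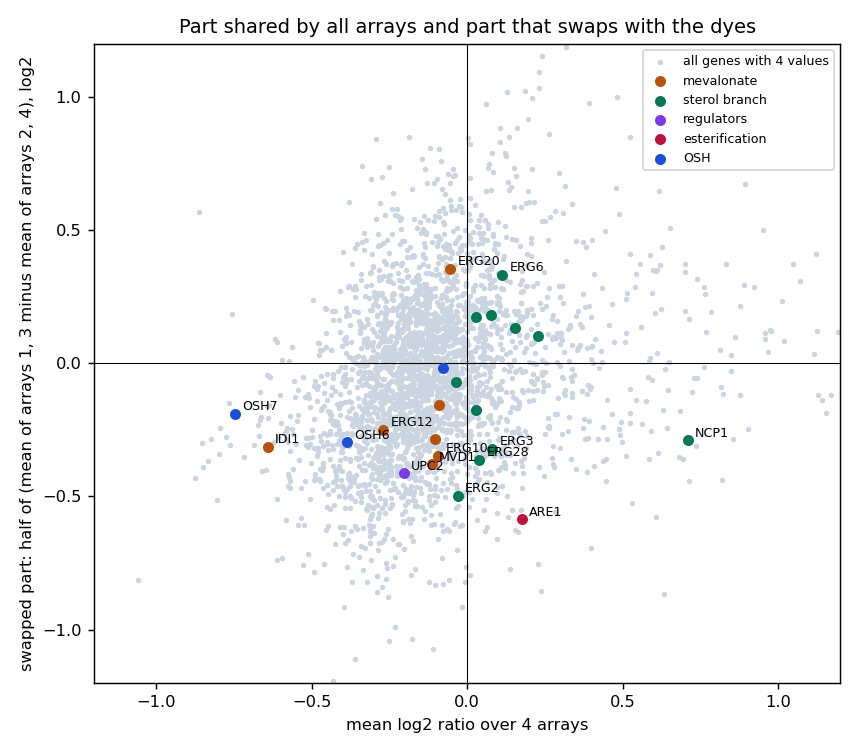
Mean log2 ratio over 4 arrays (horizontal axis) against the part that swaps with the dyes (vertical axis), for the 23 members by role and in grey for 2879 of the 2925 genes (46 lie beyond the axes). NCP1, IDI1 and OSH7 stand out along the horizontal axis, and ARE1, ERG2, ERG20 and ERG6 along the vertical.

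Other genes of the pathway, listed by function, were examined in the same way. Of 16 genes for sterol uptake, transfer and ester hydrolysis, 3 had 4 values and none passed (limma, 0 of 3). PRY1, which encodes a secreted sterol-binding protein, was positive on all arrays, with 0.25, 0.51, 0.26 and 0.21 (limma, adjusted p = 0.182). NPC2, the vacuolar sterol-transfer gene, had -0.36, 0.77, -0.58 and 0.55, the alternation seen for ARE1. LAM1 alternated the opposite way, with 0.47, -0.37, 1.27 and -1.05. Its swapped part was 0.79, against -0.56 for NPC2. Of 9 genes for haem, oxygen and sterol-enzyme partners, 7 had 4 values and none passed (limma, 0 of 7), with 6 negative means as deposited, 4 after centring and 4 when turned by the dye labels, beside 73%, 53.8% and 44.1% of all genes. CYB5, the cytochrome that can serve as an electron donor beside Ncp1, had 0.048, -0.39, -0.043 and -0.21, unlike NCP1. HAP1, the haem-responsive activator, had 1.10, -0.57, 1.64 and -0.60, the largest swapped part of these lists at 0.98 (limma, adjusted p = 0.0763).

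Of 7 other users of farnesyl diphosphate, 2 had 4 values and both means were negative as deposited and after centring, and 1 when turned by the dye labels, beside the same shares of all genes. None passed the test (limma, 0 of 2). RER2, a dolichol synthesis gene, had -0.036, -0.44, -0.34 and -0.27, and RAM1, the farnesyltransferase subunit gene, -0.54, 0.027, -0.55 and -0.086. Of 6 partners of OSH proteins at membrane contacts, SCS2, the endoplasmic reticulum anchor for the long OSH proteins, was alone in having 4 values. It had -0.54, 0.19, -0.72 and 0.20 (limma, adjusted p = 0.231), so its sign too went with the dyes.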

How the data were processed

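The authors deposited 1 log2 ratio per gene and array, for 6207 genes and 2 control rows. Base 2 was inferred because taking 2 to the power of each entry gave a 4-decimal number (tolerance 2e-06) for 100% of entries. Not given in the sources used here are the scanner software, background correction, normalization, rule for blanks, genome build, and the scale, centring and direction of the ratios. Symbols came from the RefSeq table of assembly R64 by systematic name (5654 of 6207 genes and 35 of 35 members). No coordinates or sequences are printed.

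For genes with 4 values, limma (version 3.58.1, R version 4.3.3) compared culture means (2 cultures) with 0. Each culture mean holds 1 array of each dye orientation. Since no label ties an array to a culture, both possible pairings were fitted, and the larger p per gene was Benjamini-Hochberg adjusted over 2925 genes. Intervals come from that pairing. The SD covers 4 arrays of 2 cultures. The swapped part was tested likewise. The code was tested on simulated data. Members and lists were chosen with earlier results of these data known. All 35 members are accounted for, with full statistics for those of 1 sign on all arrays. The number of arrays limits the precision. Alternatives were each pairing, a dye term over 4 arrays, centring, scaling, genes with at least 3 values, ratios turned by the dye labels (arrays 1 and 3 flipped), and each array left out. For every gene the fit with a dye term takes the 4 arrays as separate although they come from 2 cultures. With an array left out, a culture mean no longer holds both dye orientations.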

Additional observations from a re-analysis of the deposited data

Results flagged for a closer look

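ERG9, the squalene synthase gene, had 1 array apart from the other 3: its log2 ratio was 0.56 on array 1, and -0.041 to -0.14 on the others. Its gap to the nearest array took up 0.853 of the range, above Dixon's 95% critical value for 4 values. After centring of the arrays the share was 0.641, below that value, so this gap depends on the offsets of the arrays. OSH7, not past it as deposited at 0.781, was past it at 0.835 after centring. Of the 23 members examined as deposited ERG9 was the 1 case, and chance gives about 1 in 20.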

How the results depend on the processing

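The count of members past the test, 0 of 23, became 3 (NCP1, IDI1 and OSH7) with arrays 1 and 4, and 2 and 3, as the cultures, and 3 with a dye term over all 4 arrays, and 1 (NCP1) with arrays centred and scaled. All genes past the test then numbered 148, 109 and 48, against 1. Without 1 array a culture is left with a single array, so no count is given, and the mean of NCP1 was 0.56 to 0.83. Members positive on all arrays numbered 2, 8 with values turned by the dye labels and 2 to 5 without 1 array, being 5 without array 3. Of all genes, 6.872% were positive on all arrays, 19.73% when turned and 8.0% to 10.09% without 1 array. Members negative on all arrays numbered 4, and 2 with centring, 2 with centring and scaling, 2 when turned and 4 to 6 without 1 array. Of all genes, 19.32% were negative on all arrays, 8.718% with centring, with or without scaling, 13.4% when turned and 23.42% to 30.56% without 1 array. Leaving out an array cannot lower these counts of sign. The median of the members less that of all genes, 0.092, ranged from 0.035 to 0.18 without 1 array and was 0.20 when turned. Turned by the dye labels, means of ERG12, IDI1, ERG11, OSH7 and KES1 were 0.25, 0.31, -0.10, 0.19 and 0.018, opposite in sign to those deposited, and NCP1 kept its sign at 0.29. KES1 was 0.034 with centring and 0.0296 with centring and scaling. Members past the test for the swapped part, 0, became 3 (ARE1, UPC2 and ERG2) with arrays 1 and 2, and 3 and 4, as the cultures, and 4 with centring and scaling, where 16.58% and 20.17% of all genes passed. OSH7 minus OSH6 was -0.62 to -0.17 and SWH1 minus OSH2 0.79 to 2.04 without 1 array. The sterol branch less the mevalonate route was 0.24 to 0.45 without 1 array, an alternative added after seeing the data. The cause of these changes was not tested, except that turning the values exchanges the mean and the swapped part by construction. In 14 of the 23 members leaving out at least 1 of the arrays changed the sign of the mean. With 2 cultures, 1 degree of freedom per gene lies behind each moderated variance, and how far a spot stood above background is unknown.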
